A study of Homo sapiens with 2 samples.

Results

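The 28S rRNA part of the rDNA repeat was examined in PAR-CLIP libraries of HEK293T cells, as the bins whose names begin with 28S among the 4482 bins of the repeat that are listed for both libraries. Each bin is 10 bases wide, and together the 28S bins fill the 5050 bases from base 7921 to base 12970 of the repeat without a gap, which makes them 11.3% of all bins, between ITS2 on the 5′ side and the 3′ETS on the 3′ side. In PAR-CLIP, living cells are fed a nucleoside that reacts under long-wave UV, so that RNA becomes bound to the proteins it contacts and can be pulled out with one of them and sequenced. HEK293T, a line of human embryonic kidney origin, carries the SV40 large T antigen. The cells expressed either SFB-Ku80, the Ku80 subunit of DNA-PK with streptavidin-binding and FLAG tags, or the SFB empty vector, called the vector control here. Both received 0.1 mM 6SG, a thiol-bearing guanosine, overnight and then 365 nm UV at 0.4 J per square cm, and RNA was recovered over streptavidin resin and FLAG resin. The tagged Ku80 came from a transgene, which the labels call stable while the methods name a vector for transient transfection, and no loss of the cells' own Ku80 is stated.

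The 28S rRNA is the long RNA of the large ribosomal subunit and holds its peptidyl transferase centre. RNA polymerase I makes it as the 3′ portion of the 45S precursor, and removal of ITS2 and the 3′ETS in the nucleolus and afterwards frees its ends. Its conserved core is interrupted by expansion segments, which in mammals are long and rich in G and C. Mature 28S makes up a large part of the RNA of any cell, and the empty vector library gives the level recovered without the tagged bait.

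Each condition was sequenced as 1 library, so differences between them could not be set against replicates, and no p-value is given. The vector control had 29863974 read pairs and the SFB-Ku80 library 22173753, of which STAR left 21.5% and 47.1% unmapped. The authors aligned reads to the rDNA repeat by BLAST and counted the reads over each bin, so a read is counted in every bin it covers and the bins are a signal, not separate reads. Values here are reads over a bin per 1000000 read pairs of the library, written RPM, and a ratio is SFB-Ku80 divided by SFB empty vector on that scale. Intervals on a ratio are 95% log-normal intervals for counting error only, and they are too narrow, because reads without stated molecular identifiers are not independent molecules. They are given for single bins, and not for sums over bins, in which a read is counted many times. A bin table holds neither strand nor sequence, and neither the transgene nor the cell line was checked against its RNA here.

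28S rRNA was recovered with and without the tagged Ku80. Its bins summed to 52954570 in the vector control and to 72098427 in SFB-Ku80, so the raw signal was higher in the smaller library. A bin held on average 3511 RPM in the vector control and 6439 in SFB-Ku80, which is a ratio of 1.83. This order depended on what the signal was set against. Per read pair that STAR assigned to a feature the ratio was 5.72. Per unit of 18S signal it was 0.658, and per unit of the whole 45S signal it was 0.801, so 28S took a smaller part of the rRNA reads in SFB-Ku80 although it took a larger part of the library. These ratios compare shares of libraries and not amounts of RNA, and the part of the unmapped pairs in them was not tested. The share of 28S in the 45S signal was 64.4% in the vector control and 51.6% in SFB-Ku80. A mean 28S bin held 0.764 times as many reads as a mean 18S bin in the vector control and 0.502 times as many in SFB-Ku80.

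Per read pair, 498 bins of 28S, or 98.6%, had more signal in SFB-Ku80, and 7 did not, a direction that held for 7.72% of the bins when the signal was set against 45S and for 3.96% when it was set against 18S. It held for 99.6% per mapped read pair, for 100% per assigned read pair and for 93.1% without scaling. The background per read pair was 99.5% over all 45S bins, 100% over the 45S bins outside 28S and 37.1% over all rDNA bins. Only 29.8% of all rDNA bins were 45S bins, so shares over all rDNA bins rest mostly on bins outside 45S. The background is not given for the other denominators, so the shares under them have no background here. The 28S share per read pair was thus near that of the other transcribed bins. The size of the ratio set 28S apart more than its direction did. A ratio of at least 2 was reached by 130 bins of 28S, or 25.7%, against 99.9% of the 45S bins outside 28S, 71.8% of all 45S bins and 27.3% of all rDNA bins. The share past this limit moved with the scale, in 28S to 4.95% without scaling, 93.1% per mapped pair, 100% per assigned pair, 0.396% per 45S signal and 0% per 18S signal. In the 45S bins outside 28S it was then 91.6%, 100%, 100%, 73.1% and 63.1%, so per assigned pair the limit did not separate them from 28S. No test of this difference was possible with 1 library each.

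The SD of the log2 ratio was 0.326 over the 28S bins, 0.199 over 18S, 0.051 over 5.8S, 0.277 over ITS2 and 0.392 over the 3′ETS. The quartiles of the 28S bins were 1.59 and 2.01 around a median of 1.82, and 387 of them lay between 1.5 and 2.5. The 186 bins of 18S, the RNA of the small subunit, had a median of 2.78 with quartiles of 2.63 and 2.88, and their lowest ratio was 2.44. Of the 28S bins, 33 reached that lowest value of 18S. The 15 bins of 5.8S, which pairs with 28S in the mature large subunit, lay between 3.27 and 3.71. ITS2 had a median of 5.76 over 117 bins and the 3′ETS one of 6.82 over 37 bins. The quartile ranges of these 5 regions did not overlap, and 28S was the lowest. This order does not depend on the denominator, which multiplies all ratios alike.

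**Figure D1:**
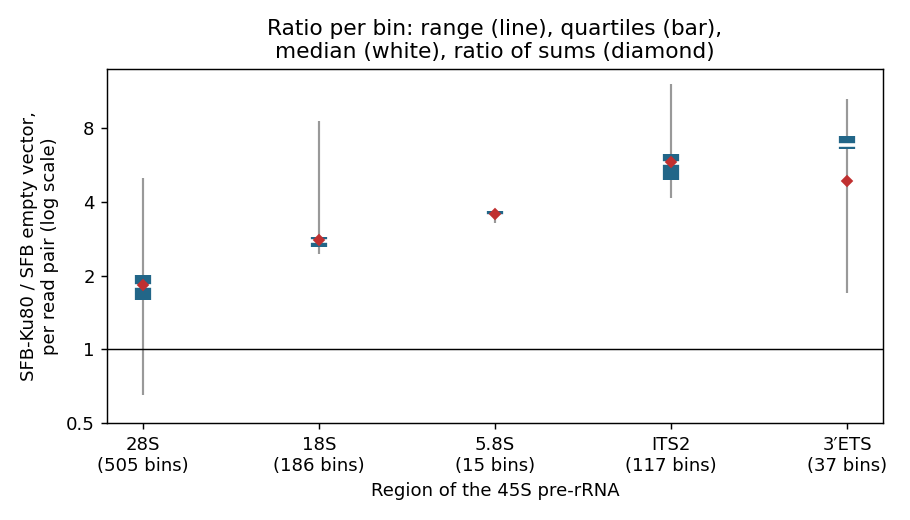
Ratio of SFB-Ku80 to SFB empty vector per read pair for the bins of 28S and of 4 other regions of the 45S pre-rRNA, on a log scale. Grey lines are the range over bins, bars the quartiles, white marks the median and diamonds the ratio of the summed signal. 28S has the lowest median, 1.82, and is the only one of these regions with bins under 1 on this scale, the lowest at 0.653.

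The signal along 28S was uneven, and it was uneven in nearly the same way in both libraries. The 90th percentile of the 28S bins was 26.1 times the 10th in the vector control and 27.95 times in SFB-Ku80, against 2.42 and 2.38 times within 18S. The coefficient of variation over the 28S bins was 0.795 in the vector control and 0.811 in SFB-Ku80, and over the 18S bins it was 0.335 and 0.322. The top 10% of the 28S bins held 25.8% of the 28S signal in the vector control and 26.8% in SFB-Ku80. Over the 28S bins the profiles of the libraries had a Pearson r of 0.983 and a Spearman rho of 0.990. These are descriptions, as both libraries were aligned to the same repeat and each bin shares reads with its neighbours. Neighbouring bins correlated with r of 0.989 in the vector control and 0.988 in SFB-Ku80, and r fell under 0.5 at a distance of 120 bases in both.

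Peak runs were taken as stretches of bins at or above the 90th percentile of their own library, joined over gaps of up to 5 bins. SFB-Ku80 had 3 of them and the vector control 4. Of the 51 bins at this level in each library, 47 were the same, which is 92.2% of either list.

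The first peak run lay near the 5′ end, from base 8001 to 8150 in SFB-Ku80 and from 8011 to 8150 in the vector control. Its top, the bin from 8081 to 8090, held 334369 reads in the vector control, the most of any 28S bin of that library, and 435333 in SFB-Ku80. Scaled by read pairs these were 11196 and 19633 RPM, a ratio of 1.75. The second run lay from 9301 to 9440 in SFB-Ku80 and from 9311 to 9450 in the vector control. Its top bin, 9381 to 9390, was the highest 28S bin of SFB-Ku80 with 455221 reads, against 319946 in the vector control. That was 20530 and 10713 RPM, a ratio of 1.92. The order of these top bins differed between the libraries, with the 5′ one leading in the control and the one at 9381 leading with Ku80.

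The third run was the longest, 260 bases from 9711 to 9970 in SFB-Ku80 and 240 bases from 9721 to 9960 in the vector control. Its top bin, 9751 to 9760, held 279310 reads in the vector control and 454287 in SFB-Ku80, or 9353 and 20488 RPM, a ratio of 2.19. Over the whole SFB-Ku80 runs the ratio was 1.73 for the first, 1.94 for the second and 1.98 for the third. So the ratio differed between peaks of like height in SFB-Ku80. The fourth run of the vector control was 20 bases long, from 10651 to 10670. Its top bin had 238604 reads there and 293349 in SFB-Ku80, a ratio of 1.66, and it was not among the top 10% of SFB-Ku80.

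**Figure D2:**
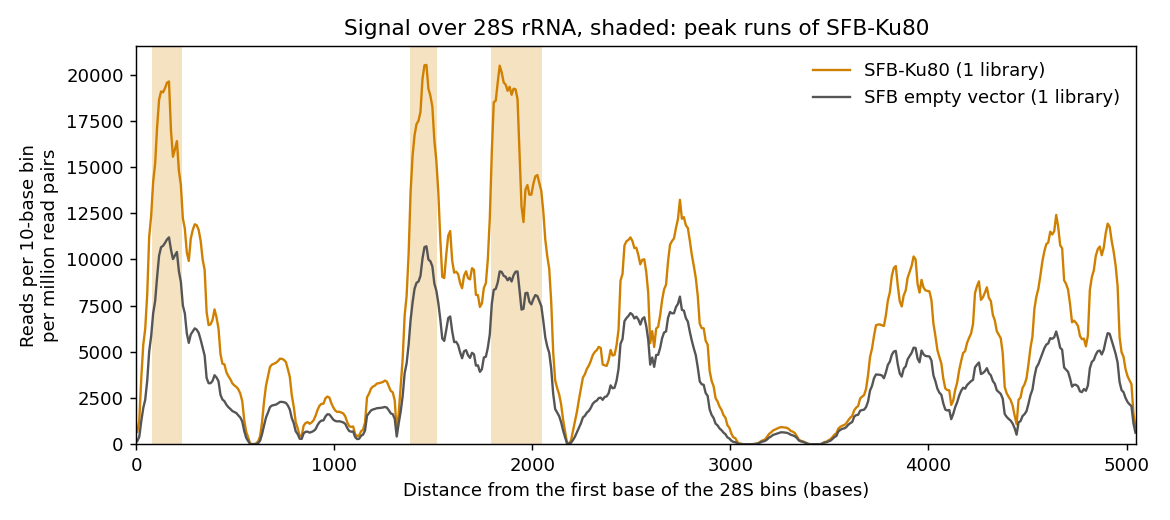
Signal per 10-base bin in RPM along 28S, from the first base of its bins at repeat position 7921, in SFB-Ku80 and SFB empty vector (1 library each). The shaded peak runs of SFB-Ku80 begin 81, 1381 and 1791 bases into 28S, and the vector control is lower but high at the same places.

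With the 80th percentile in place of the 90th, each library had 7 runs, and their top bins were the same in both libraries. The added ones lay in the central and 3′ parts of 28S. In the bin from 10411 to 10420 the vector control had 7101 RPM and SFB-Ku80 11194, a ratio of 1.58. Towards the 3′ end, the bin from 12561 to 12570 had 6103 and 12411 RPM, a ratio of 2.03. The bin from 12821 to 12830 had 6013 and 11940 RPM, a ratio of 1.99. These 3′ tops were lower than the one at 10411 in the control and higher than it in SFB-Ku80.

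Trough runs were stretches of bins at or below the 10th percentile, joined in the same way, with 6 in SFB-Ku80 and 7 in the vector control. Of the 51 bins at this level in each library, 48 were shared, or 94.1% of either list. The seventh run of the vector control was the first bin of 28S. Shallow troughs lay at 8741 to 8760 and at 9031 to 9050 in SFB-Ku80, and in the vector control each of them was 1 bin, at 8751 and at 9031. The lowest bin of the former held 8622 reads in the vector control and 9853 in SFB-Ku80, a ratio of 1.54. That of the latter held 8385 and 9631, a ratio of 1.55. The other 4 troughs were deep, and bins with fewer than 1000 reads in the vector control, 22 in all, occurred in these troughs only.

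**Figure D3:**
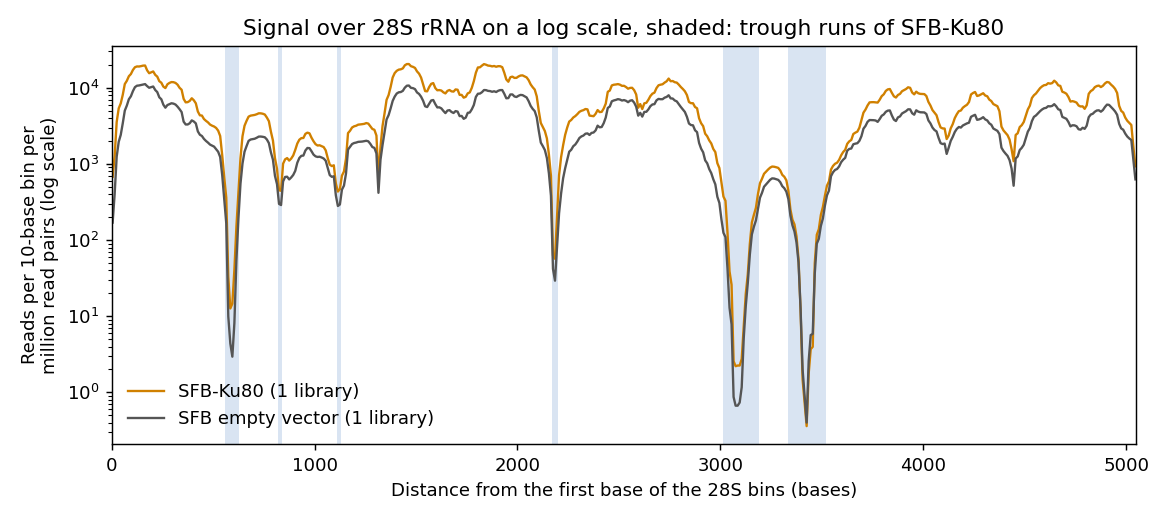
The same signal in RPM on a log scale, with the trough runs of SFB-Ku80 shaded. Both libraries drop at the same places, and in the last deep trough, which holds the lowest bin of each library at 0.402 in the vector control and 0.361 in SFB-Ku80, the SFB-Ku80 line meets and then crosses that of the vector control.

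The deep troughs differed in their ratio. In the trough from 8481 to 8550, the bins from 8491 to 8530 had 88 to 297 reads in the vector control and 281 to 903 in SFB-Ku80. Their summed signal had a ratio of 3.97, and none of these bins was below 2.89. The bin from 8521 to 8530 had the highest ratio of all 28S bins, 5.00 (4.34 to 5.77), with 243 reads in the vector control and 903 in SFB-Ku80. The trough at 10091 to 10120 in SFB-Ku80, and to 10130 in the vector control, was short. Its lowest bin, 10101 to 10110, had 876 and 1260 reads, a ratio of 1.94 (1.78 to 2.11). The bin from 10121 to 10130 was its 3′ flank in SFB-Ku80 and its last bin in the vector control. There the ratio was higher, at 3.17 (3.08 to 3.26), with 6724 and 15831 reads.

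The trough from 10931 to 11110 in SFB-Ku80, and from 10921 in the vector control, changed its ratio from one side to the other. On the 5′ side, each of the 4 bins from 10941 to 10980 had a ratio between 2.97 and 3.32. At its floor the bin from 10991 to 11000 held 20 reads in the vector control and 49 in SFB-Ku80, with a ratio of 3.30 (1.962 to 5.55). On the 3′ side the bin from 11031 to 11040 had 154 and 164 reads, with a ratio of 1.43 (1.15 to 1.79). The bin from 11051 to 11060 had 817 and 790 reads and a ratio of 1.302 (1.18 to 1.44). The step between 11021 and 11040, from 2.35 to 1.43, rests on 35 and 61 reads before it, and the intervals of these bins overlap between 1.55 and 1.79.

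The last deep trough, from 11251 to 11440 in SFB-Ku80 and from 11261 in the vector control, held all 7 bins of 28S that were not higher in SFB-Ku80 per read pair. They lay side by side from 11311 to 11380, a stretch of 70 bases. From 5′ to 3′ the bins had 384, 60, 27, 12, 77, 169 and 176 reads in the vector control. In SFB-Ku80 they had 269, 33, 16, 8, 39, 82 and 88 reads. Together these were 905 and 535 bin counts, with a ratio of 0.796. The fourth of them, 11341 to 11350, was the lowest bin of 28S in both libraries, with a ratio of 0.898 (0.367 to 2.20). The direction of these bins turned with the denominator. Per mapped read pair their ratios lay between 0.970 and 1.40, with 2 of the 7 under 1, and per assigned read pair between 2.04 and 2.94. Without scaling, or against the 45S or 18S signal, all 7 stayed under 1.

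The 7 bins were picked by their ratio per read pair, so setting their intervals against 1 is no test of a drop. For 5 of the 7 bins the counting interval, itself too narrow, included 1. The others were the bin from 11361 to 11370, which had the lowest ratio of 28S at 0.653 (0.502 to 0.851), and the bin from 11371 to 11380 at 0.673 (0.521 to 0.870). These neighbours share reads and are not separate observations. The bins just outside the stretch were above 1. On the 5′ side the bin from 11301 to 11310 had 1515 and 1247 reads and a ratio of 1.11 (1.03 to 1.19), and on the 3′ side the bin from 11381 to 11390 had 1079 and 1098 reads and a ratio of 1.37 (1.26 to 1.49). From the 5′ side the ratio declined over several bins into the stretch, and on the 3′ side it changed within 1 bin. Of the 483 bins with at least 1000 reads in both libraries, all 483 had a ratio above 1 per read pair.

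**Figure D4:**
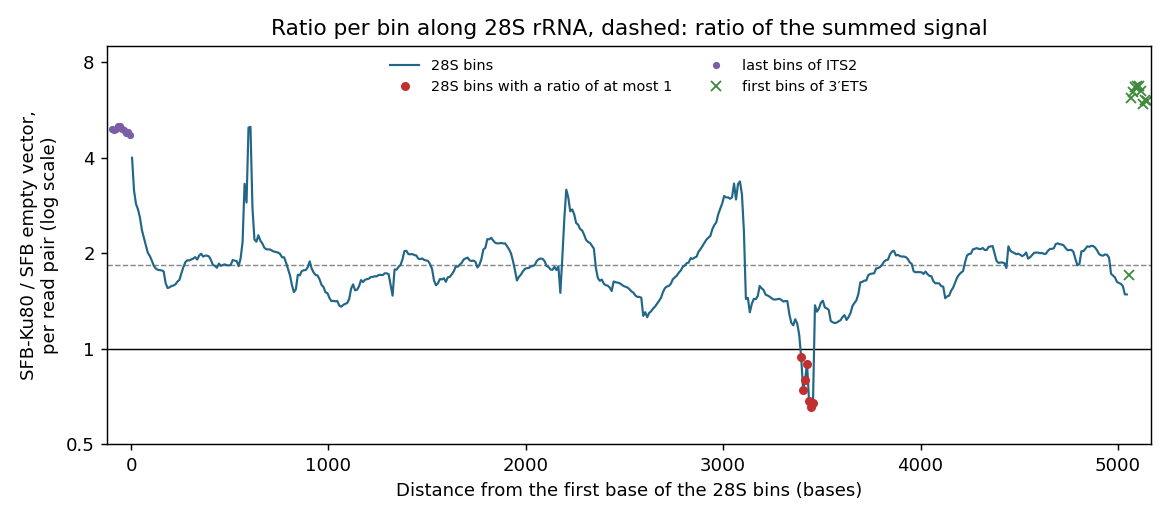
Ratio of SFB-Ku80 to SFB empty vector per read pair in each 28S bin on a log scale, by distance from the first base of the 28S bins, with the 10 nearest bins of ITS2 and of the 3′ETS. The dashed line is the ratio of the summed 28S signal, 1.83, and the 7 bins with a ratio of at most 1 (red) stand together (per mapped read pair 2 of them would be under 1, and per assigned pair none), while the spacer bins shown, save the first 3′ETS bin at 1.71, lie at 4.72 or above, a level that 2 bins of 28S reached.

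Low counts went with a wide spread of ratios, in both directions. In the 22 bins with fewer than 1000 reads in the vector control, the ratio ran from 0.653 to 5.00 and the SD of its log2 value was 1.00. In the 232 bins with at least 100000 reads it ran from 1.26 to 2.36, and the SD was 0.17. The ratios of the well-covered bins still spread wider than their counting intervals, which are too narrow as said above. The lowest among them, 10531 to 10540, had 125058 reads in the vector control and 116713 in SFB-Ku80, with a ratio of 1.26 (1.25 to 1.27). Its neighbourhood, 10511 to 10590, stayed between 1.26 and 1.39 over 8 bins. In contrast, the 4 bins from 9721 to 9760, with 249572 to 279310 reads in the vector control, had ratios between 2.19 and 2.24. Whether such differences recur between libraries of the same condition cannot be judged from these data. Over all 28S bins the ratio had a Spearman rho of 0.143 with the signal of the vector control, a description of bins that share this library.

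Stretches of high and of low ratios were joined over gaps of up to 5 bins. A joined stretch can thus hold bins short of its limit, such as 2.17 at 8551 to 8560. The 10% of the bins with the highest ratios, at 2.18 or above, fell into 5 stretches. These were the first 70 bases of 28S, the bins from 8491 to 8580 around the first deep trough, the 40 bases at 9721, the bins from 10111 to 10230 and those from 10831 to 11030. Only the stretch at 9721 lay on a peak. The 10% with the lowest ratios, at 1.41 or below, fell into 4 stretches, at 8931 to 9020, 10511 to 10590, 11051 to 11070 and 11221 to 11590. The last was the longest, with 370 bases and a ratio of 1.29 for its summed signal, and it extended beyond the trough into bins with up to 55230 reads in the vector control and 57169 in SFB-Ku80.

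Both ends of 28S were crossed to see how the mature region meets its spacers. In the last 10 bins of ITS2 the ratio lay between 4.72 and 5.04, with 2403 to 3891 reads in the vector control and 8717 to 13914 in SFB-Ku80. The first 28S bin, 7921 to 7930, had 5070 and 15047 reads and a ratio of 4.00 (3.87 to 4.13). The signal then grew and the ratio declined from bin to bin, to 3.15 at 7931, 2.86 at 7941 and 2.01 at 8001. At 8031 to 8040 the ratio was 1.83, with 304808 reads in the vector control and 413403 in SFB-Ku80. Neither levelled off there. The signal reached its first top at 8081 to 8090 in both libraries, and the ratio fell further to 1.55 at 8101 to 8110. The 5′ border was thus a gradient of more than 110 bases in both signal and ratio.

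The 3′ end looked different. The ratio declined towards it, from 1.94 at 12871 to 12880 to 1.48 in the last 28S bin, 12961 to 12970, which had 18750 and 20647 reads. The first bin of the 3′ETS, 12971 to 12980, had 3384 and 4287 reads and still a ratio of 1.71 (1.63 to 1.79). In the next bin the reads dropped to 297 and 1362, and the ratio was 6.18 (5.45 to 7.002). The change in ratio at the 3′ border thus took place between neighbouring bins, inside the 3′ETS as the bins name it. The ends of 28S within the bin names are rounded to 10 bases, and where the mature end lies on the repeat used was not determined here.

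In 10 windows of 50 bins, with 55 in the last, the ratio of the summed signal stayed between 1.498 and 1.989. Window 4, from 9421 to 9920, had the most signal, with a mean per bin of 6810 RPM in the vector control and 13014 in SFB-Ku80. Window 7, from 10921 to 11420, had the least, with means of 205 and 308 RPM, and also the lowest ratio, 1.498. Window 6, from 10421 to 10920, had the next lowest ratio, with means of 4728 and 7624 RPM and a ratio of 1.61. Window 10, from 12421 to 12970, had the highest ratio, with means of 4068 and 8091 RPM, and 29 of its 55 bins reached a ratio of 2.

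Expressed as parts of the 28S signal of each library, the windows shifted little. Window 6 held 13.3% in the vector control and 11.7% in SFB-Ku80, the largest shift at -1.61 percentage points. Window 10 held 12.6% and 13.7%, a shift of 1.07 points, and window 4 held 19.2% and 20.01%, a shift of 0.81 points. The other windows moved by less than that of window 4, the next being window 8 at -0.31 points. The point at which the first 50% of the 28S signal was reached lay at base 9970 in the vector control and at base 9950 in SFB-Ku80.

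**Figure D5:**
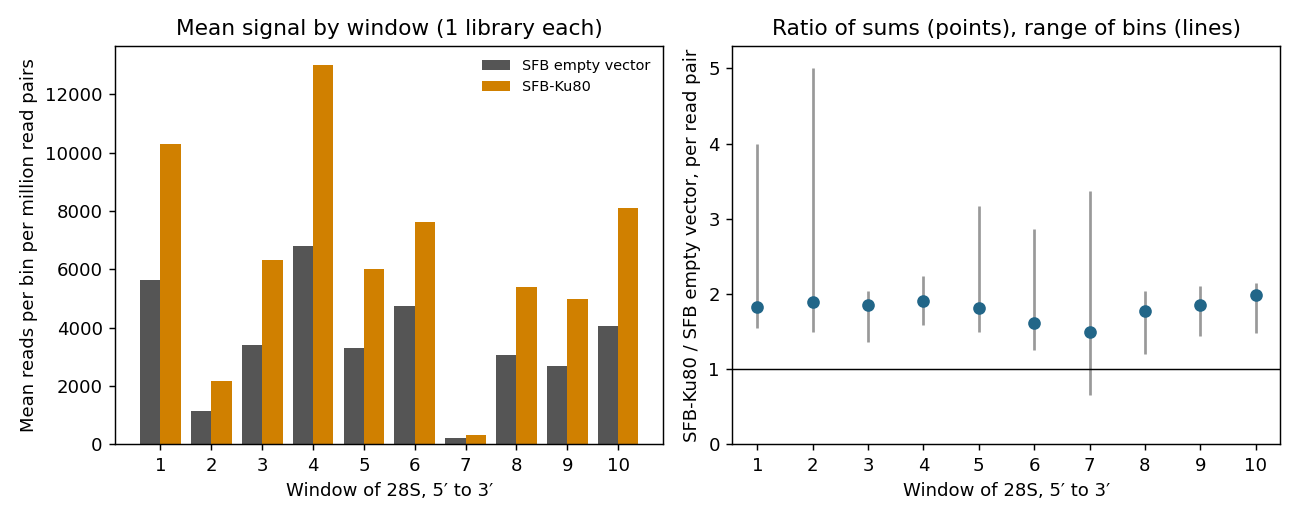
Left, mean RPM per bin in 10 consecutive windows of 28S (1 library each). Right, ratio of the summed signal of each window (points) with the lowest and highest ratio of its bins (lines), where the points lie between 1.498 and 1.989 and only window 7 reaches under 1 on this scale, though none of its bins does per assigned pair.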

How the data were processed

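PAR-CLIP libraries of HEK293T cells with SFB empty vector (the vector control) and SFB-Ku80 were analysed, 1 per condition, grouped by the genotype in the labels. The authors aligned reads to an rDNA repeat by BLAST and deposited, for bins of 10 bases, a signal that counts the reads over the bin without scaling. The BLAST version and limits and the repeat sequence are not given in the sources used here, so no sequence is printed and base composition was not analysed. The authors also deposited counts of read pairs per feature from STAR (2.7.6a in the submitters' processing notes, genome CHM13), and their sum with the unmapped, multimapping, unassigned and ambiguous pairs gave the read pairs per library. The featureCounts tables (2.0.2) were not used, since reads on 28S overlap the enclosing 45S features.

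Bin signals were divided by read pairs with Python 3.11.15, pandas 2.3.3 and numpy 2.4.6, and the functions were tested on simulated data. Bins were named by rule: the highest and lowest of each library and of the ratio, all peak and trough runs, all bins with a ratio of at most 1 and the ends of 28S. Flanks, ratio stretches and example bins inside them were picked after their values were seen. The members and rules were chosen with earlier results of these data known. Alternatives changed the denominator, borders, percentiles and joining.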

Additional observations from a re-analysis of the deposited data

How the results depend on the processing

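No paired analysis was possible because there is 1 library for each genotype. The direction of the 28S ratio depended on the denominator, and the cause was not tested. Against 1.83 as reported, the ratio was 1.36 without scaling, 2.72 per mapped read pair, 5.72 per assigned read pair, 0.801 per unit of 45S signal and 0.658 per unit of 18S signal. It was 1.828 with the borders moved inwards by 10 bins and 1.819 for the median bin. The share of 28S bins higher in SFB-Ku80, 98.6% as reported, was 7.72% with the 45S and 3.96% with the 18S signal as denominator, and between 93.1% and 100% under the other denominators. Its background, given per read pair only, was 100% over the 45S bins outside 28S. The share with a ratio of at least 2, 25.7% as reported, was 4.95% without scaling, 93.1% per mapped pair, 100% per assigned pair, 0.396% per 45S signal and 0% per 18S signal. In the 45S bins outside 28S it was 99.9% per read pair, and in the same order 91.6%, 100%, 100%, 73.1% and 63.1%. Over the 28S bins with at least 1000 reads in both libraries, a limit chosen after seeing the data, the share was 24.6%, with no background computed. Peak runs, 3 and 4 as reported, numbered 7 in both libraries with the 80th percentile, and 5 in SFB-Ku80 without joining. Trough runs of SFB empty vector went from 7 to 4 with the 5th percentile. The top 20% of bins held 45.2% of the SFB-Ku80 signal against 26.8% for the top 10%, which was 26.9% with the borders moved. Of the 38 values under alternatives, 18 stayed within the limits set, 18 moved past them and 2 reversed. The limits were wide for counts of runs, since the change from 4 to 6 peak runs in SFB empty vector counted as within them. The counting intervals of the ratio were widest in the 22 bins with fewer than 1000 reads in either library, and the part of depth in their ratios was not tested.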
